A study of Mus musculus with 12 samples.

Results

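The naive pluripotency transcription factors are 10 genes picked by name, Nanog, Esrrb, Klf2, Klf4, Klf5, Tfcp2l1, Tbx3, Zfp42, Prdm14 and Nr5a2, out of 53379 genes in the deposited tables. All 10 were found by symbol and all 10 passed the filter on low counts. RNA was sequenced from mouse ZHBTc4 embryonic stem cells, a 129/Ola line whose own Pou5f1 alleles are inactivated and whose Oct4, the pluripotency factor that Pou5f1 encodes, is made from a transgene that doxycycline shuts off. Phf6 KO cells were set against wild type (WT) cells, Phf6 being a chromatin-binding protein that the series title ties to the activation of trophectodermal genes. The 6 groups, with 2 libraries each, were KO with doxycycline, WT with doxycycline, KO with retinoic acid, WT with retinoic acid, KO untreated and WT untreated. Doxycycline was given for 2 days, at 0.5 µg/ml in the sample labels and at 0.5 mg/ml in the protocol text. All-trans retinoic acid was given for 4 days and leukemia inhibitory factor (LIF) was left out, whereas the maintenance medium held serum and 1000 units/ml of LIF. The cells had spent their first passages on feeder fibroblasts and were then grown on gelatin. The number of Phf6 KO clones is not given in the sources used here.

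Naive pluripotency is the state of the preimplantation epiblast and of mouse embryonic stem cells kept in LIF. It is held by Oct4 and Sox2 together with a set of auxiliary factors that bind many shared enhancers and activate one another, so that most single members can be lost without loss of self-renewal. LIF acts through Stat3 on Klf4 and Tfcp2l1, Tbx3 is linked to the phosphoinositide 3-kinase branch, and Esrrb is repressed by Tcf7l1 and activated by Nanog. When stem cells leave this state these factors are switched off, toward trophectoderm when Oct4 is lost and toward other lineages with retinoic acid.

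Libraries held 15799517 to 21441996 rounded counts, so that 3 counts, the limit that a count of 0 allows, stand for 0.132 to 0.204 CPM (counts scaled to library size). Phf6 had 7.38 and 8.19 CPM in KO doxycycline libraries and 35.1 and 29.9 CPM in WT doxycycline libraries. It had 5.90 and 5.96 CPM in KO retinoic acid libraries and 40.3 and 40.7 CPM in WT retinoic acid libraries, and 4.49 and 6.50 CPM in KO untreated and 42.8 and 40.2 CPM in WT untreated libraries. Every KO library was thus below every WT library, as the labels say. Pou5f1 had 13.0 and 14.3 CPM in KO doxycycline libraries and 34.0 and 46.3 CPM in WT doxycycline libraries, against 1196 and 1193 CPM in KO untreated and 1031 and 1013 CPM in WT untreated libraries. With retinoic acid it had 976 and 989 CPM in KO libraries and 973 and 1081 CPM in WT libraries. All samples are labelled as embryonic stem cells, and the doxycycline libraries do not have the Pou5f1 level that defines that cell type.

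Sequences upstream of the start were read from RefSeq promoter windows on GRCm38.p6, which reach from 250 bases before to 50 bases after a start. Of the 10 factors, 7 had a window, 10 windows in all, and Klf5, Tbx3 and Prdm14 had none. The windows were searched on both strands for 5 motifs: an octamer (ATGCAAAT), a Sox motif (CATTGTT), a composite Oct-Sox element, an Esrrb motif (TCAAGGTCA) and a Klf motif (GGGNGTGG). The composite holds most letters of the octamer and of the Sox motif, and its letters were chosen with the known Nanog element in mind. The 250 upstream bases of Nanog, Zfp42 and Tfcp2l1 are shown because they hold matches to motifs of the network's own factors, as does 1 of the 2 windows of Nr5a2, which is not printed. They are printed 5′ to 3′ on the strand of the gene, and capitals mark the motif matches. Nanog lies at chr6:122707239-122707488 (plus strand), Zfp42 at chr8:43307010-43307259 (minus strand) and Tfcp2l1 at chr1:118627695-118627944 (plus strand).
Nanog: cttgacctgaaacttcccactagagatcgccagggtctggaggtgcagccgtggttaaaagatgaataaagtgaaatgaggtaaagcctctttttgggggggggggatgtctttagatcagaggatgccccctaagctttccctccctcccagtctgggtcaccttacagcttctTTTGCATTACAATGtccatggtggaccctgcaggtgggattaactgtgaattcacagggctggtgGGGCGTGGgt
Zfp42: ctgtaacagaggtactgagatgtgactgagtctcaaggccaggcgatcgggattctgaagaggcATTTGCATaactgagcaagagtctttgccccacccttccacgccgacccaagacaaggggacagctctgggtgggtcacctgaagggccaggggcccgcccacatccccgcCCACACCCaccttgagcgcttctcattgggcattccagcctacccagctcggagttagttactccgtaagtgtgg
Tfcp2l1: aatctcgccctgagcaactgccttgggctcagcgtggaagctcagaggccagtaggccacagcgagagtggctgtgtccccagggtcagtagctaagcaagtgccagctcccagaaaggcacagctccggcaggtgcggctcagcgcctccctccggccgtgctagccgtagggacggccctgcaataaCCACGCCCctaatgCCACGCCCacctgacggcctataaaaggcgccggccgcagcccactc
The capitals in Nanog are the composite element, read on the opposite strand and beginning 75 bases before the start, and a Klf match. The composite was in 2 of 32851 windows (0.00609%), both of Nanog, which overlap and hold the same 1 site. In Zfp42 the capitals are an octamer on the opposite strand, beginning 186 bases before the start, and a Klf match, and the octamer was in 1.74% of all windows. In Tfcp2l1 they are 2 Klf matches. The Klf motif was found in 5 of the 10 windows of the factors and in 17.6% of all windows. Those 5 windows belong to 4 factors, Nanog (2 overlapping windows), Zfp42, Tfcp2l1 and Nr5a2. The Sox motif (3.78% of windows) and the Esrrb motif (0.423%) matched no window of the factors. A match is only a run of letters, and binding was not measured here.

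In untreated cells the factors were abundant and spanned a wide range of transcript levels, compared here as TPM, which scale for gene length as well as for library size. Zfp42, a zinc finger protein also called Rex1 and much used as a marker of the naive state, was highest, at 1155 ± 16.7 TPM in KO and 1043 ± 24.7 TPM in WT cells (SD, n = 2 each, as for the other means). Nanog, a homeodomain factor, and Esrrb, an orphan nuclear receptor, followed in both lines. Nanog averaged 461 ± 22.1 TPM in KO and 565 ± 25.7 TPM in WT cells, and Esrrb 406 ± 10.9 TPM in KO and 397 ± 9.23 TPM in WT cells. Klf4 averaged 256 ± 0.424 TPM in KO and 137 ± 0.990 TPM in WT cells and ranked higher in KO cells. Prdm14, a PR domain protein that represses Dnmt3b and FGF signaling genes, was lowest at 10.2 ± 0.849 TPM in KO and 11.4 ± 0.255 TPM in WT cells, next to Nr5a2, an orphan nuclear receptor that binds regulatory DNA of Pou5f1.

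The order changed with treatment. With doxycycline Tbx3, a T-box factor that also acts in extraembryonic endoderm, was highest, at 124 ± 6.41 TPM in KO and 136 ± 15.2 TPM in WT cells. Nanog was next, at 75.2 ± 4.07 TPM in KO and 132 ± 3.78 TPM in WT cells, and its WT libraries lay within the range of those of Tbx3. With retinoic acid the top factor differed by line. Klf5, a Krüppel-like factor also needed for the trophectoderm, was highest in KO cells at 124 ± 1.57 TPM and averaged 102 ± 3.13 TPM in WT cells. Nanog was highest in WT cells at 362 ± 12.9 TPM and averaged 66.1 ± 2.12 TPM in KO cells. Added over the 10 factors, the libraries held 323 and 333 TPM in KO and 408 and 433 TPM in WT cells with doxycycline. With retinoic acid the sums were 473 and 488 TPM in KO and 1202 and 1186 TPM in WT cells. Untreated libraries had 2870 and 2969 TPM in KO and 2835 and 2756 TPM in WT cells.

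**Figure D1:**
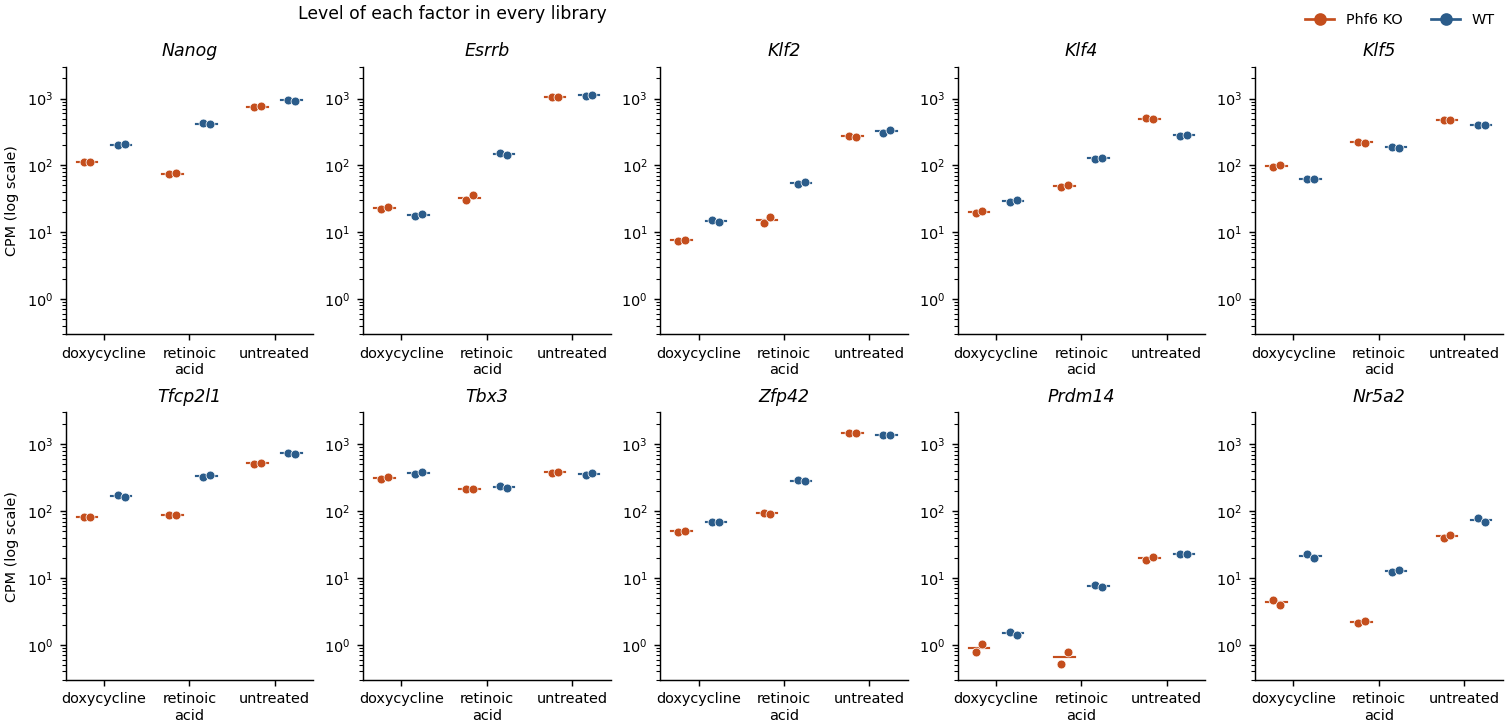
Level of each of the 10 factors in CPM on a log scale (vertical axis) by treatment (horizontal axis), with 1 point per library, KO in orange and WT in blue, and a line at the mean of the 2 libraries. The 2 libraries of a group lie close together, and with retinoic acid the KO points lie far below the WT points for 8 factors but not for Klf5 and Tbx3, which had 221 and 219 CPM (Klf5) and 212 and 214 CPM (Tbx3) in KO libraries, against 189 and 183 CPM (Klf5) and 234 and 225 CPM (Tbx3) in WT libraries.

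The values that follow are CPM, which compare 1 gene between libraries. Nanog (chr6:122707489-122714633, GRCm38) had 111 and 114 CPM in KO and 199 and 208 CPM in WT doxycycline libraries, and 73.1 and 77.0 CPM in KO and 431 and 413 CPM in WT retinoic acid libraries. In untreated libraries it had 739 and 770 CPM in KO and 964 and 930 CPM in WT cells. Its 6 groups did not overlap, and the KO line was lower in each condition. Esrrb (chr12:86361117-86521628) had 22.0 and 23.6 CPM in KO and 17.5 and 19.0 CPM in WT doxycycline libraries, and 30.2 and 35.7 CPM in KO and 155 and 144 CPM in WT retinoic acid libraries. Its untreated libraries had 1049 and 1065 CPM in KO and 1109 and 1116 CPM in WT cells. KO libraries were thus the higher ones with doxycycline and the lower ones in the other conditions.

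The 3 Krüppel-like factors are zinc finger proteins with overlapping DNA targets, and they moved differently. Klf2 (chr8:72319033-72321656) had 7.38 and 7.77 CPM in KO and 15.0 and 14.2 CPM in WT doxycycline libraries, and 13.7 and 16.9 CPM in KO and 52.5 and 57.0 CPM in WT retinoic acid libraries. Untreated, it had 271 and 270 CPM in KO and 310 and 333 CPM in WT libraries. It was lower in KO in each condition. Klf4 (chr4:55527143-55532466) had 19.1 and 21.0 CPM in KO and 27.9 and 30.7 CPM in WT doxycycline libraries, and 47.0 and 51.2 CPM in KO and 124 and 130 CPM in WT retinoic acid libraries. In untreated libraries it stood at 503 and 495 CPM in KO and 280 and 287 CPM in WT cells. KO libraries were above WT before treatment and below WT after either treatment. Klf5 (chr14:99298691-99315036) had 96.0 and 99.5 CPM in KO and 63.2 and 63.3 CPM in WT doxycycline libraries, and 221 and 219 CPM in KO and 189 and 183 CPM in WT retinoic acid libraries. Untreated libraries had 481 and 473 CPM in KO and 398 and 396 CPM in WT cells, so Klf5 was higher in KO libraries in each condition.

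Tfcp2l1 (chr1:118627945-118685168), a CP2 family factor and target of LIF and Stat3, had 80.5 and 83.1 CPM in KO and 175 and 166 CPM in WT doxycycline libraries, and 88.5 and 86.3 CPM in KO and 323 and 348 CPM in WT retinoic acid libraries. Untreated, it had 509 and 533 CPM in KO and 744 and 721 CPM in WT libraries. KO libraries were lower in each condition. Tbx3 (chr5:119670669-119684724) had 303 and 325 CPM in KO and 358 and 391 CPM in WT doxycycline libraries, and 212 and 214 CPM in KO and 234 and 225 CPM in WT retinoic acid libraries. Its untreated libraries had 376 and 383 CPM in KO and 346 and 372 CPM in WT cells. The WT doxycycline libraries overlapped the untreated libraries of both lines, and the retinoic acid libraries were lowest. Tbx3os1, an antisense gene, overlaps Tbx3 and held at most 143 counts in a library, and since the strand setting is not given in the sources used here, Tbx3 reads cannot be told apart from it with certainty.

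Zfp42 (chr8:43295063-43306980) had 49.6 and 51.0 CPM in KO and 68.3 and 68.3 CPM in WT doxycycline libraries, and 95.4 and 90.1 CPM in KO and 290 and 285 CPM in WT retinoic acid libraries. In untreated libraries it had 1490 and 1478 CPM in KO and 1374 and 1368 CPM in WT cells. KO libraries were slightly above WT before treatment and below WT after either treatment. Prdm14 (chr1:13113457-13127163) had 0.78 and 1.02 CPM in KO and 1.57 and 1.41 CPM in WT doxycycline libraries, and 0.51 and 0.78 CPM in KO and 7.75 and 7.28 CPM in WT retinoic acid libraries. It had 18.8 and 20.5 CPM in KO and 22.5 and 22.5 CPM in WT untreated libraries. The treated KO values rest on few reads, 14 and 17 counts with doxycycline and 11 and 15 counts with retinoic acid, and these 2 groups overlapped. Nr5a2 (chr1:136842571-136960448) had 4.75 and 4.00 CPM in KO and 22.8 and 20.0 CPM in WT doxycycline libraries, and 2.11 and 2.25 CPM in KO and 12.4 and 13.0 CPM in WT retinoic acid libraries. Untreated libraries had 40.3 and 43.8 CPM in KO and 78.1 and 68.0 CPM in WT cells, and KO libraries were lower in each condition. Its lowest libraries within each line were those with retinoic acid.

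With doxycycline, which shuts off Oct4 in this line, nearly the whole set was lower. All 10 factors fell in KO cells and 9 fell in WT cells, by edgeR's quasi-likelihood test at a Benjamini-Hochberg adjusted p of 0.05. Among all 17884 genes tested, 62.3% were called in KO cells, 31.2% as lower, and 63.0% in WT cells, 31.3% as lower. The median log2 change of the factors was -3.85 in KO and -2.96 in WT cells, with that of all tested genes at 0.00 in both. Esrrb fell the most, to 2.16% of its untreated level in KO and 1.64% in WT cells. The log2 change was -5.54 ± 0.071 (SE) in KO and -5.92 ± 0.073 in WT cells, with edgeR adjusted p of 6.9e-30 in KO and 2.6e-30 in WT. Klf2 was left at 2.80% of its untreated level in KO and 4.56% in WT cells, Zfp42 at 3.39% in KO and 4.98% in WT cells, Klf4 at 4.02% in KO and 10.3% in WT cells, and Prdm14 at 4.58% in KO and 6.62% in WT cells. Smaller falls left Nr5a2 at 10.4% in KO and 29.3% in WT cells, Nanog at 14.9% in KO and 21.5% in WT cells, Tfcp2l1 at 15.7% in KO and 23.2% in WT cells, and Klf5 at 20.5% in KO and 16.0% in WT cells. Tbx3 stood apart, at 82.7% in KO cells (log2 change -0.27 ± 0.052, edgeR adjusted p = 4.6e-05) and 104% in WT cells (0.06 ± 0.052, adjusted p = 0.32, and -0.06 with upper-quartile scaling). The fall of Tbx3 in KO cells was not called on TPM values (-0.21, limma, adjusted p = 0.087). In this bulk RNA, fewer cells of a type and less RNA per cell cannot be told apart. Whether the 2 libraries of a group came from separate cultures is not given in the labels, and p-values therefore rest on a spread between libraries that may be technical.

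Markers of trophectoderm and of primitive endoderm moved with the doxycycline response. The 13 trophectoderm markers, Cdx2, Gata3, Eomes and others, added up to 1497 to 1510 TPM in KO and 2185 to 2502 TPM in WT doxycycline libraries, against 79.6 to 82.7 TPM in KO and 101 to 106 TPM in WT untreated libraries. Of the 12 tested, 10 rose with doxycycline in each line. None of the 13 was at 0 in any group. The 11 primitive endoderm markers added up to 678 to 742 TPM in KO and 532 to 540 TPM in WT doxycycline libraries, against 169 to 170 TPM in KO and 215.5 to 215.7 TPM in WT untreated libraries, and 7 of them rose and 2 fell in each line. Of 9 tested feeder fibroblast markers 5 rose and 2 fell in KO cells, and 4 rose and 2 fell in WT cells. Of 6 tested neural progenitor markers 3 rose and 2 fell in KO cells, and 1 rose and 3 fell in WT cells. Beside these counts, 62.3% of all tested genes were called in KO cells, 31.2% as lower. In WT cells 63.0% were called, 31.3% as lower. The part of these 4 lists in the fall of the naive factors was not tested.

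All 10 factors were lower with retinoic acid in both lines (edgeR, adjusted p below the threshold of 0.05), where 75.5% of all tested genes were called in KO cells, 34.6% as lower, and 73.9% in WT cells, 32.9% as lower. The median log2 change of the factors was -3.67 in KO and -1.37 in WT cells, and that of all tested genes was 0.10 in KO and 0.12 in WT cells. Nanog was left at 9.96% of its untreated level in KO and 44.6% in WT cells, Klf4 at 9.84% in KO and 44.9% in WT cells, and Tfcp2l1 at 16.8% in KO and 45.8% in WT cells. Prdm14 kept 3.30% in KO and 33.4% in WT cells, Zfp42 6.25% in KO and 21.0% in WT cells, and Nr5a2 5.18% in KO and 17.4% in WT cells. Klf2 kept 5.65% in KO and 17.0% in WT cells, and Esrrb 3.12% in KO and 13.4% in WT cells. Klf5 kept 46.2% in KO and 46.9% in WT cells and Tbx3 56.1% in KO and 64.0% in WT cells. In KO cells both stood above the other factors, whereas in WT cells the range of Klf5 overlapped those of Tfcp2l1, Klf4 and Nanog. The log2 change of Nanog was -3.33 ± 0.054 in KO (edgeR adjusted p = 1.7e-27) and -1.17 ± 0.048 in WT cells (adjusted p = 2.7e-18). The fall of Tbx3 in WT cells (-0.64 ± 0.053, edgeR adjusted p = 9.4e-12) was not called on TPM values, where the log2 difference was -0.15 (limma, adjusted p = 0.18). The size of these falls depended on the setting. Over the other settings the log2 change of Nanog in WT cells ranged from -1.23 to -0.64. That of Klf5 ranged from -1.16 to -0.59 in KO and from -1.15 to -0.565 in WT cells. In TPM, Nanog averaged 362 with retinoic acid and 565 untreated in WT cells. RNA of retinoic acid samples was extracted with another kit, and LIF was left out, so that retinoic acid, the absence of LIF and the kit cannot be told apart in comparisons with other conditions. Socs3, a gene that LIF induces through Stat3, averaged 28.2 ± 1.27 CPM in KO and 26.1 ± 0.117 CPM in WT retinoic acid cells. In untreated cells Socs3 averaged 170 ± 6.73 CPM in KO and 152 ± 3.10 CPM in WT. It is 1 of 8 LIF and Stat3 pathway genes, which moved in both directions with retinoic acid. In KO cells 5 of them were lower and 2 higher, and in WT cells 6 were lower and 2 higher. Medium and kit are shared by KO and WT cells with retinoic acid.

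**Figure D2:**
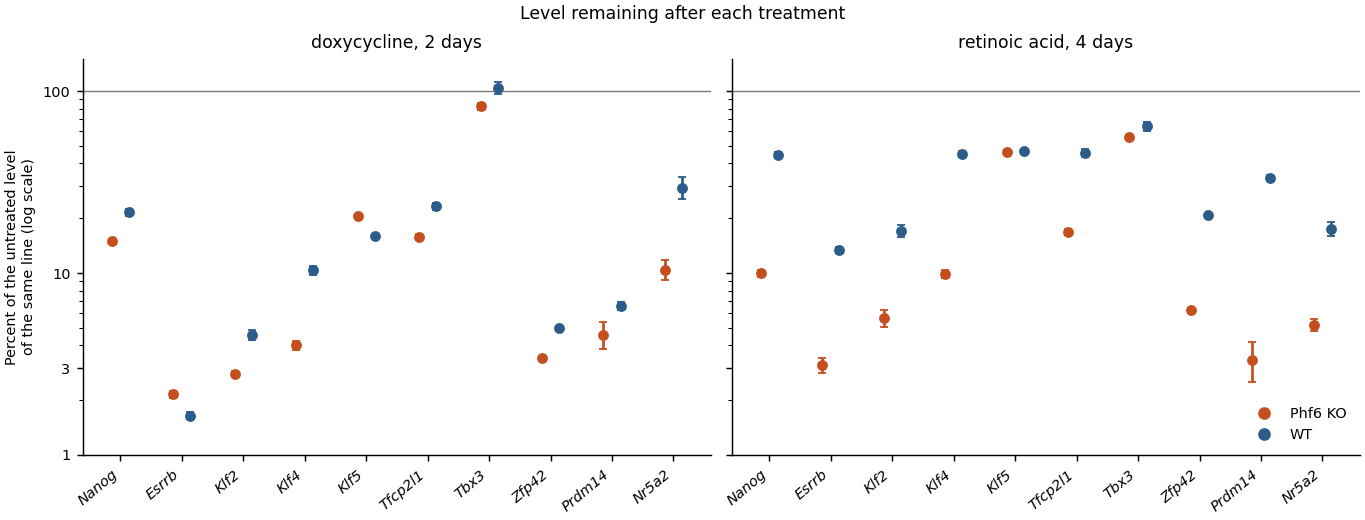
Level kept after each treatment as a percentage of the untreated level of the same line, for each of the 10 factors, on a log scale, with KO in orange, WT in blue and bars from the lowest to the highest ratio of 1 treated to 1 untreated library. With retinoic acid the WT points lie above the KO points, as for Nanog at 9.96% in KO and 44.6% in WT cells, while Klf5 is at 46.2% in KO and 46.9% in WT cells.

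Set directly against each other, the 2 treatments left different factors. They also differed in length (2 days of doxycycline, 4 days of retinoic acid), in LIF and in the extraction kit. These cannot be told apart from the treatments. In WT cells 8 of 10 factors were lower with doxycycline than with retinoic acid (37.4% of tested genes were lower) and 2, Tbx3 and Nr5a2, were higher (33.2%, with 70.6% called in all), by edgeR at an adjusted p of 0.05. In KO cells 5 were lower (37.9%) and 3, Nanog, Tbx3 and Nr5a2, were higher (33.3%, with 71.2% called in all). Esrrb showed the largest difference in WT cells, with a log2 change of -3.03 ± 0.072 for doxycycline against retinoic acid (edgeR adjusted p = 1.2e-23), and -0.53 ± 0.078 in KO cells (adjusted p = 7.7e-07). Nanog was lower with doxycycline in WT cells (-1.05 ± 0.050) and higher with doxycycline in KO cells (0.58 ± 0.054, edgeR adjusted p = 1.6e-10). Nr5a2 was higher with doxycycline in KO cells (1.01 ± 0.19) and in WT cells (0.74 ± 0.10, edgeR adjusted p = 2.3e-07), and on TPM values the WT difference was 0.32 (limma, adjusted p = 0.051). Tfcp2l1 in KO cells (-0.10 ± 0.056, edgeR adjusted p = 0.12) and Prdm14 in KO cells (0.48 ± 0.34, adjusted p = 0.25) were not called. On TPM values the difference of Tfcp2l1 was -0.34 (limma, adjusted p = 0.0083), and with effective-length offsets it was 0.03.

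In untreated cells the KO line differed from WT in either direction. Among the 10 factors 2 were higher in KO cells and 4 lower, that is 6 called where 30.0% of all tested genes were called, 15.2% higher and 14.9% lower. The median log2 change was -0.13 over the factors and 0.02 over all tested genes. Klf4 was the most raised, with a log2 change of 0.82 ± 0.050 (edgeR adjusted p = 6.9e-13), and Klf5 rose by 0.27 ± 0.045 (adjusted p = 3.2e-05). Nr5a2 (-0.80 ± 0.080), Tfcp2l1 (-0.49 ± 0.049), Nanog (-0.33 ± 0.048) and Klf2 (-0.25 ± 0.055) were lower in KO cells by edgeR, with adjusted p of 7.5e-09, 6.5e-09, 3.9e-06 and 0.00096 in that order. The call on Klf2 was lost on TPM values (-0.21, limma, adjusted p = 0.14). Zfp42 (0.11 ± 0.045, edgeR adjusted p = 0.059), Tbx3 (0.08 ± 0.052), Esrrb (-0.07 ± 0.053, and 0.03 on TPM values) and Prdm14 (-0.19 ± 0.11) were not called. Zfp42 was called higher in KO cells with upper-quartile scaling (0.12, edgeR adjusted p = 0.048) and in the fit on the untreated libraries alone (0.10, adjusted p = 0.046). Trophectoderm markers were lower in KO cells as well, 8 of 12 tested with 1 higher, and a median log2 change of -0.57. Of the other marker lists, 3 of 11 primitive endoderm markers were higher and 3 lower, 1 of 9 feeder fibroblast markers was higher and 2 lower, and 2 of 6 neural progenitor markers were higher and 2 lower. The sums were 39.6 to 41.5 TPM of feeder fibroblast markers in KO and 26.6 to 27.8 TPM in WT libraries, and 76.0 to 77.3 TPM of neural progenitor markers in KO and 65.5 to 67.5 TPM in WT libraries. Lum and S100a4, of the feeder fibroblast list, were at 0 in the KO libraries, Dcx, of the neural list, was at 0 in both lines, and Neurog2 was at 0 in WT. The part of these markers in the differences of the factors was not tested.

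In doxycycline-treated cells the KO line held less of most factors. KO cells had 7 factors lower and 2 higher, 9 called where 37.0% of all tested genes were called, 19.1% lower and 17.9% higher. The median was -0.64 over the factors and 0.00 over all tested genes. Of all calls 48.3% were higher with the library scaling used here (TMM) and 60.6% with upper-quartile scaling. Nr5a2 was the most lowered (log2 change -2.28 ± 0.13, edgeR adjusted p = 3.5e-14), followed by Tfcp2l1 (-1.06 ± 0.055), Klf2 (-0.95 ± 0.11), Nanog (-0.86 ± 0.052), Klf4 (-0.55 ± 0.076), Zfp42 (-0.44 ± 0.057) and Tbx3 (-0.25 ± 0.052, edgeR adjusted p = 0.00028). Klf5 (0.63 ± 0.052) and Esrrb (0.31 ± 0.086, edgeR adjusted p = 0.0048) were higher in KO cells. The call on Esrrb rests on 1 library: without the first WT doxycycline library it was 0.25 (edgeR adjusted p = 0.076). The call on Tbx3 was lost with effective-length offsets (-0.17, edgeR adjusted p = 0.21) and on TPM values (-0.13, limma, adjusted p = 0.38). Prdm14 was not called (-0.72 ± 0.29, edgeR adjusted p = 0.065), on 14 and 17 counts in KO and 23 and 28 counts in WT libraries. Trophectoderm markers were lower in KO cells as well, 11 of 12 tested, with sums of 1497 to 1510 TPM in KO and 2185 to 2502 TPM in WT doxycycline libraries, while 4 of 9 feeder fibroblast markers were higher and none lower, with sums of 33.5 to 36.3 TPM in KO and 17.2 to 17.5 TPM in WT libraries. Of 11 primitive endoderm markers 5 were higher and 3 lower, with sums of 678 to 742 TPM in KO and 532 to 540 TPM in WT libraries. Of 6 neural progenitor markers 1 was higher and 1 lower, with sums of 50.4 to 51.8 TPM in KO and 35.7 to 37.6 TPM in WT libraries. Lum and Neurog2 were at 0 in the WT libraries. The part of these markers in the differences of the factors was not tested. Cdx2, the defining trophectoderm factor, had a log2 change of -2.95 ± 0.090 (edgeR adjusted p = 3e-20).

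In retinoic acid treated cells the KO line held less of 8 factors. KO cells had 8 of 10 factors lower and 1 higher, 9 called where 38.8% of all tested genes were called, 20.0% lower and 18.8% higher. The median was -1.89 over the factors and -0.01 over all tested genes. Prdm14 showed the largest difference (log2 change -3.54 ± 0.21, edgeR adjusted p = 1.1e-13), on 11 and 15 counts in KO and 176 and 146 counts in WT libraries. Next were Nr5a2 (-2.54 ± 0.15), Nanog (-2.49 ± 0.053), Esrrb (-2.19 ± 0.065), Tfcp2l1 (-1.94 ± 0.053), Klf2 (-1.84 ± 0.078), Zfp42 (-1.63 ± 0.050) and Klf4 (-1.38 ± 0.057), where edgeR adjusted p ranged down to 1.5e-23 for Nanog. Klf5 was the factor that was higher in KO cells (0.24 ± 0.046, edgeR adjusted p = 9.7e-05). Tbx3 (-0.11 ± 0.053, edgeR adjusted p = 0.10) was not called. A fit on the KO and WT retinoic acid libraries alone called Tbx3 lower (-0.11, edgeR adjusted p = 0.018).

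**Figure D3:**
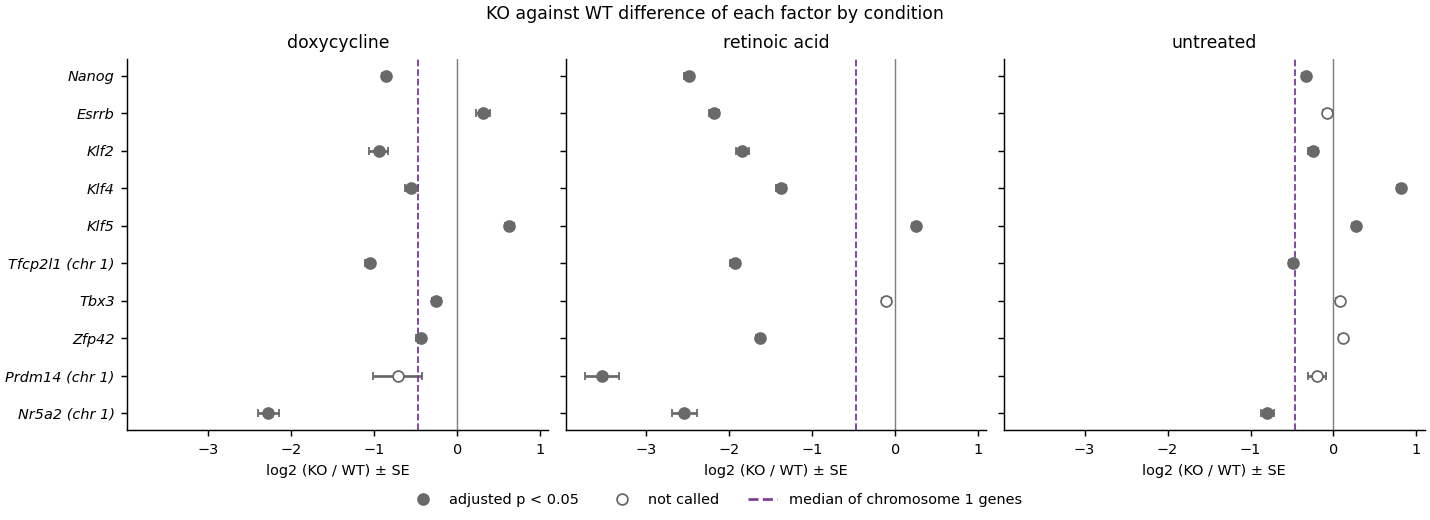
Log2 change of KO against WT cells (horizontal axis) with SE bars for the 10 factors in each of the 3 conditions, filled where the edgeR adjusted p was under 0.05, and a dashed line at the median of chromosome 1 genes. The points spread around 0 in untreated cells, while with retinoic acid 8 factors lie between -3.54 and -1.38, with Tbx3 at -0.11 and Klf5 at 0.24.

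Markers of primitive endoderm moved with the retinoic acid differences. All 11 primitive endoderm markers were higher in KO than in WT cells with retinoic acid, with a median log2 change of 0.88, and they added up to 4909 to 5256 TPM in KO and 2411 to 2553 TPM in WT libraries. Untreated libraries held 169 to 170 TPM of them in KO and 215.5 to 215.7 TPM in WT cells. Dab2, an endocytic adaptor of that lineage, changed the most, with 470 ± 18.1 CPM in KO and 166 ± 13.6 CPM in WT retinoic acid cells (edgeR adjusted p = 5.5e-18). None of the 11 was at 0 in any group, and their part in the lower naive factors was not tested. Of 12 tested trophectoderm markers 2 were higher and 6 lower in KO cells with retinoic acid (median -0.47), and they added up to 556 to 589 TPM in KO and 458 to 500 TPM in WT libraries. Of 9 tested feeder fibroblast markers 2 were higher and 5 lower in KO cells with retinoic acid, and of 6 tested neural progenitor markers 2 were higher and none lower. For all 4 marker lists the shares over all tested genes were 18.8% higher and 20.0% lower. The 11 feeder fibroblast markers added up to 31.0 to 32.0 TPM in KO and 40.2 to 42.2 TPM in WT retinoic acid libraries, and the 8 neural progenitor markers to 27.9 to 28.5 TPM in KO and 21.4 to 22.2 TPM in WT retinoic acid libraries. The part of these 3 lists in the differences of the factors was not tested either.

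On chromosome 1, which carries Tfcp2l1, Prdm14 and Nr5a2, the median gene was lower in KO cells. Its 840 genes of at least 1 CPM had a median log2 change of -0.47 in untreated cells, -0.48 with doxycycline and -0.47 with retinoic acid, where genes of the other autosomes (13311) had 0.04, 0.02 and 0.01. Read against its chromosome, the untreated difference of Tfcp2l1 lay 0.02 below the median, with 46.8% of chromosome 1 genes lower still. Its differences with doxycycline (0.58 below) and retinoic acid (1.46 below) left 7.50% and 1.90% of chromosome 1 genes lower still. Nr5a2 lay 0.33 below the median in untreated cells, 1.80 below with doxycycline and 2.07 below with retinoic acid. Prdm14 lay 0.28 above the median in untreated cells and 3.06 below it with retinoic acid, where 0.119% of chromosome 1 genes were lower still. Of the 7 factors on other chromosomes, 5 were lower and 1 higher in KO cells with retinoic acid, with a median log2 change of -1.63 over the 7. With doxycycline 5 were lower and 2 higher, with a median of -0.44. In untreated cells 2 of these 7 were lower and 2 higher, and the median was 0.08. Of all tested genes, 20.0% were lower and 18.8% higher with retinoic acid, and 19.1% lower and 17.9% higher with doxycycline. Untreated, 14.9% were lower and 15.2% higher. The part of chromosome 1 in the differences of its 3 factors was not tested.

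Whether the responses themselves differed between the lines was tested as the KO response minus the WT response. For retinoic acid 8 factors had a more negative response in KO cells and none a less negative one, where 17.7% of all tested genes were called, 10.3% more negative and 7.31% more positive. The difference was -3.34 ± 0.25 for Prdm14 (edgeR adjusted p = 3.5e-11), -2.19 ± 0.076 for Klf4, -2.16 ± 0.071 for Nanog (adjusted p = 1.3e-18), -2.11 ± 0.084 for Esrrb, -1.75 ± 0.067 for Zfp42, -1.75 ± 0.18 for Nr5a2, -1.60 ± 0.096 for Klf2 and -1.45 ± 0.072 for Tfcp2l1. Klf5 (-0.02 ± 0.064, edgeR adjusted p = 0.87, and 0.01 under the RLE scaling of DESeq2) and Tbx3 (-0.19 ± 0.074, adjusted p = 0.078) were not called, and the fit on the groups of the contrast alone called Tbx3 (-0.17, edgeR adjusted p = 0.025).

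For doxycycline 9 factors responded differently, 7 more negative and 2 more positive in KO cells, where 19.2% of all tested genes were called, 10.0% more negative and 9.11% more positive. Nr5a2 (-1.48 ± 0.16, edgeR adjusted p = 5e-08) and Klf4 (-1.37 ± 0.092, adjusted p = 9.2e-12) differed the most. Klf2 (-0.70 ± 0.13), Tfcp2l1 (-0.56 ± 0.073), Zfp42 (-0.56 ± 0.073), Nanog (-0.53 ± 0.070) and Tbx3 (-0.33 ± 0.074) were more negative as well. Klf5 (0.36 ± 0.069, edgeR adjusted p = 0.00029) and Esrrb (0.39 ± 0.10, adjusted p = 0.0069) fell less in KO cells. Without the first WT doxycycline library the Esrrb difference was 0.33 (edgeR adjusted p = 0.052), and with effective-length offsets it was 0.33 (adjusted p = 0.075). The Tbx3 difference was not called with effective-length offsets (-0.33, edgeR adjusted p = 0.15) or on TPM values (limma, adjusted p = 0.17). Prdm14 was not called (-0.53 ± 0.31, edgeR adjusted p = 0.29).

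The other genes of the network were described by lists. Of 24 other genes of the naive state, such as Fgf4, the Dppa genes, Tdgf1 and Tet2, 20 were lower in KO cells with retinoic acid and none higher, with a median log2 change of -0.82 against -0.01 over all tested genes. With doxycycline 16 were lower and 3 higher (median -0.85, against 0.00 over all tested genes), and in untreated cells 7 were lower and 9 higher (median 0.13, against 0.02). For these lists the shares over all tested genes are again 20.0% lower and 18.8% higher with retinoic acid, 19.1% lower and 17.9% higher with doxycycline, and 14.9% lower and 15.2% higher untreated. The 4 largest changes with retinoic acid were those of Dppa3 (-4.33 ± 0.45), a maternal factor that protects DNA methylation in the zygote, Lefty2 (-2.99 ± 0.13) and Lefty1 (-2.38), Nodal antagonists, and Tdgf1 (-2.71 ± 0.25), a Nodal coreceptor, with edgeR adjusted p of 7.5e-09 for Dppa3. Dppa3 had 2 and 4 counts in KO and 58 and 74 counts in WT retinoic acid libraries. Lefty2 was higher in KO cells before treatment, by 1.74 ± 0.080, with 1820 and 1768 counts in KO and 596 and 517 counts in WT libraries. Its retinoic acid response differed by -4.72 ± 0.15 (edgeR adjusted p = 9.1e-19).

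The core factors, Oct4 and its partners, showed differences of smaller size with retinoic acid. Of 4 core factors, 2, Sall4 (-0.27 ± 0.052) and Sox2 (-0.25 ± 0.055), were lower in KO cells, and Pou5f1 was not called (-0.06 ± 0.086, edgeR adjusted p = 0.61). Oct4 in this line is made from the transgene, so Pou5f1 values do not show how the cell's own alleles would respond. With doxycycline Pou5f1 (-1.57 ± 0.13, edgeR adjusted p = 1.9e-06) and Sall4 (-0.69 ± 0.051, adjusted p = 1.3e-11) were lower in KO cells and Sox2 was higher (0.86 ± 0.065, adjusted p = 1.8e-11). Among 8 LIF and Stat3 pathway genes, 5 were higher and 1 lower in KO cells with doxycycline (median 0.27), 4 higher and 1 lower with retinoic acid (median 0.18) and 4 higher and 1 lower untreated (median 0.12). Lifr, the LIF receptor chain, was higher in KO cells by 0.90 ± 0.062 with retinoic acid (edgeR adjusted p = 3.5e-12), by 0.28 ± 0.092 with doxycycline (adjusted p = 0.016) and by 0.69 ± 0.063 untreated (adjusted p = 1.6e-09). Stat3 was higher by 0.32 ± 0.054 with retinoic acid, 0.40 ± 0.052 with doxycycline and 0.18 ± 0.053 untreated. Socs3, the feedback inhibitor that Stat3 induces, was not called with retinoic acid (0.11 ± 0.070, edgeR adjusted p = 0.21) and was higher in KO cells with doxycycline (0.25 ± 0.054, adjusted p = 4e-04) and untreated (0.16 ± 0.053, adjusted p = 0.024). Its retinoic acid response differed by -0.05 ± 0.088 between the lines.

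Among 15 regulators of the exit from the naive state, 12 were lower and 1 higher in KO cells with retinoic acid (median -0.39), 7 lower and 4 higher with doxycycline (median -0.12) and 7 lower and 2 higher untreated (median 0.04). They include ERK feedback genes: Etv4 (-1.85) and Spry4 (-1.63 ± 0.10) were among the largest changes with retinoic acid. Spry4 was higher in KO cells with doxycycline (1.46 ± 0.10, edgeR adjusted p = 2.7e-12). Its mean was also higher in untreated KO cells, at 395 CPM against 298 CPM in WT. Tcf7l1, the repressor of Esrrb, was lower in KO cells by 0.20 on the log2 scale with retinoic acid (-0.20 ± 0.062, edgeR adjusted p = 0.013). Of 16 formative and primed epiblast genes 14 were tested, and 5 were higher and 6 lower in KO cells with retinoic acid, 6 higher and 2 lower with doxycycline, and 4 higher and 4 lower untreated. With retinoic acid Otx2, a factor of the formative state, was the furthest below WT in KO cells (-2.71 ± 0.44, edgeR adjusted p = 1.3e-05). It had 3 and 3 counts in KO and 19 and 24 counts in WT retinoic acid libraries. Low counts limit the firmness of that value. The mean of Otx2 was higher in KO cells in the other conditions. It was 6.57 CPM in KO and 3.73 CPM in WT cells with doxycycline, and 29.6 CPM in KO and 22.1 CPM in WT untreated cells.

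**Figure D4:**
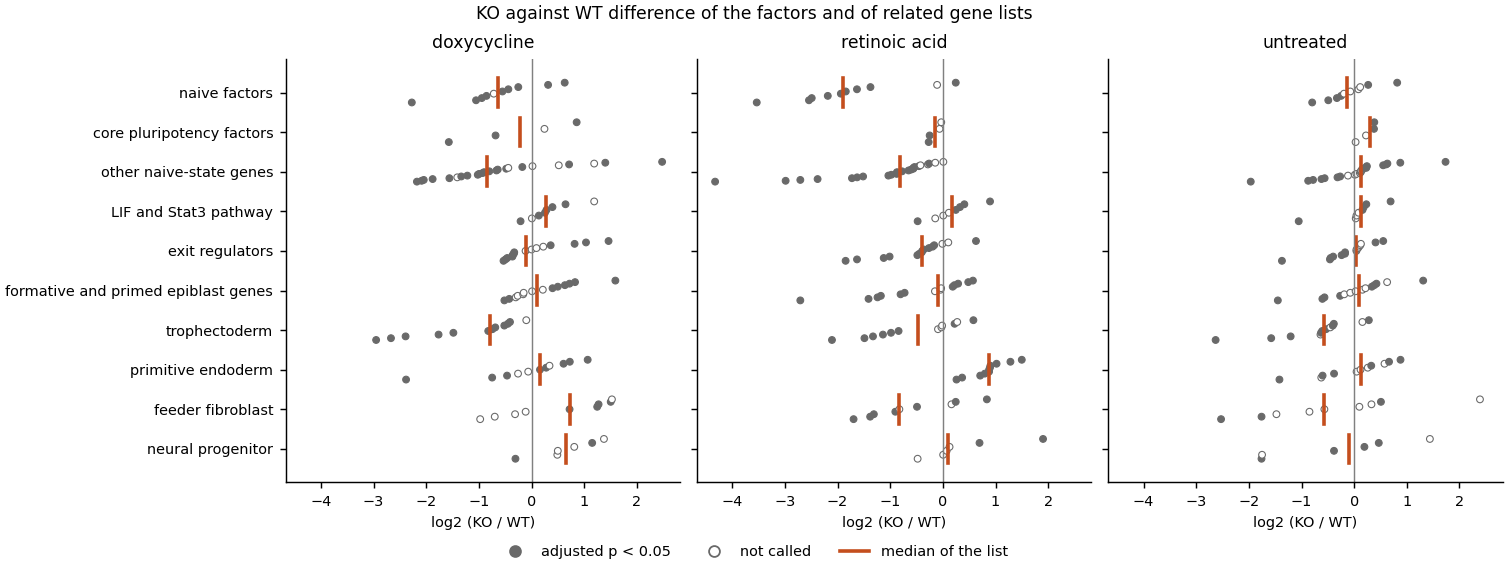
Log2 change of KO against WT cells (horizontal axis) for each tested gene of the 10 factors, of 5 related gene lists and of 4 cell type marker lists (rows) in the 3 conditions, with filled points for an edgeR adjusted p under 0.05 and an orange line at the median. With retinoic acid the other naive-state genes have a median of -0.82 and the LIF and Stat3 pathway genes a median of 0.18.

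The estimated length of some factors varied between libraries. The effective length that RSEM estimates for a gene is an average over its transcripts and moves with their mix. It varied by 53.4% between the shortest and longest library for Nr5a2 (2697 to 4137 bases), 33.4% for Tbx3, 21.0% for Tfcp2l1, 16.4% for Klf4 and, from 3055 to 3423 bases, for Esrrb. For Zfp42, Klf2, Nanog, Prdm14 and Klf5 it varied by 0.653% to 1.76%. Such shifts add to the differences between TPM and CPM, which also come from library scaling (TMM factors 0.901 to 1.163). The calls that TPM values moved were of Nr5a2, Tbx3, Tfcp2l1 and Esrrb, and of Klf2 in untreated cells. Why those calls moved was not tested.

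Patterns across the 6 group means were compared by the root mean square difference of mean-centred log2 CPM over 10837 genes of at least 5 CPM, with the 10 factors themselves, genes with provisional names and mitochondrial genes left out. Among these genes, nearest to Nanog were Lrmp (0.308) and Gli2 (0.324), and Lrmp was also nearest to Tfcp2l1 (0.148), ahead of Kat6b (0.290). Nearest to Esrrb were Sept1 (0.198) and Etv4 (0.516), to Klf2 Dusp27 (0.363) and Gtsf1l (0.371), and to Klf4 Fzd5 (0.340) and Tet2 (0.349). Nearest to Klf5 were Adamts14 (0.161) and Ano9 (0.172), and to Tbx3 Tcf20 (0.0398) and Fam192a (0.0400). Nearest to Zfp42 were Hsd17b14 (0.339) and Fzd5 (0.411), to Prdm14 Gtsf1l (0.571) and Msc (0.573), and to Nr5a2 Cpsf4l (0.584) and Nlrp12 (0.619). Klf2 and Zfp42, 0.211 apart, lay nearer to each other than to any of these genes. Nanog lay nearer to Tfcp2l1 (0.244) than to any of them, and Prdm14 nearer to Klf2 (0.539). The reverse did not hold: Tfcp2l1 was nearer to Lrmp (0.148), and Klf2 was nearer to Dusp27 (0.363) and Gtsf1l (0.371). These distances describe 6 points per gene and carry no test.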

How the data were processed

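RNA-seq libraries of 12 samples in 6 groups of 2 were used, grouped by sample title. The submitters' processing notes name STAR 2.5.3a, RSEM 1.3.0, DESeq2 1.18.1 and the mm10 build. Neither the annotation release nor the strand of counting is given in the sources used here. The authors deposited RSEM tables that hold, per the file headers, expected counts, TPM and an effective length for each gene. Expected counts divide reads shared between genes, and fractional values made up 9.54% to 11.6% of the genes of a library, among them 2 of the 10 factors, Tfcp2l1 and Tbx3, in some libraries.

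Expected counts were rounded to whole numbers. Genes were filtered with filterByExpr (minimum count 10), which kept 17884 genes, and libraries were scaled by TMM (factors 0.901 to 1.163). One fit over all 12 libraries with 6 residual degrees of freedom (edgeR 4.0.16, limma 3.58.1, R 4.3.3; quasi-likelihood test) gave 11 contrasts. P-values were adjusted by Benjamini-Hochberg over all tested genes, with a threshold of 0.05. The SE was taken as the absolute log2 change over the root of its F value. CPM were computed from the rounded counts and the TMM-scaled totals. The code was tested on simulated data. The coefficient of variation between replicates beyond counting noise was 4.4%, taken from the dispersion that edgeR fits in common to all tested genes. Replicates differed by more than sampling noise. The floor of 3 counts covers counting error alone, as there were no molecular identifiers.

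Positions come from GENCODE M21 on GRCm38, where 53274 of 53379 gene identifiers were matched without their version. Named genes were the 10 factors, Phf6 and Pou5f1, up to 4 genes per list and contrast with the largest changes past the threshold, and the 2 genes nearest in pattern to each factor. Socs3, Stat3, Tcf7l1 and the treated values of Lefty2, Spry4 and Sox2 were added after values were seen. So were the untreated values of Spry4 and the doxycycline and untreated values of Otx2. Members and lists were chosen with earlier results of these data known. Other settings were DESeq2 1.42.0, RLE and upper-quartile scaling, no filter, effective-length offsets, limma on log2 of TPM plus 1 or 0.1, fits on the groups of a contrast alone, a replicate block and leaving out each library.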

Additional observations from a re-analysis of the deposited data

Results flagged for a closer look

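In several factors the response to a treatment differed between KO and WT cells by the test of the difference itself (edgeR quasi-likelihood test, Benjamini-Hochberg adjusted p under 0.05, KO response minus WT response on the log2 scale). For doxycycline the differences were -0.53 for Nanog, 0.39 for Esrrb, -0.70 for Klf2, -1.37 for Klf4, 0.36 for Klf5, -0.56 for Tfcp2l1, -0.33 for Tbx3, -0.56 for Zfp42 and -1.48 for Nr5a2. For retinoic acid they were -2.16 for Nanog, -2.11 for Esrrb, -1.60 for Klf2, -2.19 for Klf4, -1.45 for Tfcp2l1, -1.75 for Zfp42, -3.34 for Prdm14 and -1.75 for Nr5a2. Klf4 was higher in KO than in WT cells before treatment and lower after either treatment. Groups of 2 libraries were too small to be searched for single outlying libraries.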

How the results depend on the processing

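Of 1510 values of the factors recomputed under other settings, 1475 kept their direction and their side of the threshold, 19 lost their call, 7 gained one and 9 changed sign, each of those 9 being a value that was not called. These counts do not show changes of size. The retinoic acid response of Nanog in WT cells, for example, ranged from -1.23 to -0.64. DESeq2 called 3419 genes for KO against WT untreated (edgeR 5369), 4265 with retinoic acid (edgeR 6936), and 1998 (edgeR 3425) and 1746 (edgeR 3157) for the differences between lines in the doxycycline and retinoic acid responses. Effective-length offsets called 1983 and 1759 genes for these response differences, and limma on log2(TPM + 1) called 3328 genes for KO against WT untreated and 1812 and 1983 for the response differences. Sign changes were the Klf5 retinoic acid response difference (0.0145 by DESeq2, 0.0076 with RLE scaling, and -0.0445 to 0.0071 without single libraries), Tbx3 with doxycycline in WT cells (-0.0037 with effective-length offsets, -0.0559 with upper-quartile scaling, and -0.0064 to 0.12 without single libraries), Tfcp2l1 for doxycycline against retinoic acid in KO cells (0.0259 with effective-length offsets) and Esrrb for KO against WT untreated (0.0294 and 0.0295 on TPM). Without single libraries, factors called numbered 8 to 9 for KO against WT with doxycycline and for the doxycycline response difference, the loss being Esrrb. With upper-quartile scaling the share of calls that were higher was 60.6% for KO against WT with doxycycline (48.3% with TMM) and 61.9% for the doxycycline response difference (47.6% with TMM), and the median log2 change of all genes was -0.11 for doxycycline in WT cells and -0.19 for doxycycline against retinoic acid in WT cells (0.00 and -0.05 with TMM). The cause of these changes was not tested. Deviations of the first replicates from their group means correlated at -0.20 to 0.08 between groups. Such values cannot show whether equal replicate numbers shared a culture or batch, which the labels do not say. With the replicate block the factors called stayed 6 untreated, 9 with doxycycline and 9 with retinoic acid, while all genes called became 5215, 6471 and 6806. Depth limits Prdm14 most, with 11 to 17 counts in treated KO libraries.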
